A study of Mus musculus with 2 samples.

Results

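The transcripts of 9 effector cytokines were compared between control OT-I cells and OT-I cells that overexpress *Eomes*. The genes were *Ifng*, *Tnf*, *Csf2*, *Il3*, *Il10*, *Il13*, *Lta*, *Ltb* and *Tgfb1*. They were taken by gene symbol from 14732 symbols listed in at least 1 of the 2 libraries, as effector cytokines of activated CD8+ T cells. All 9 were listed in both libraries. OT-I cells are CD8+ T cells of a transgenic mouse whose T cell receptor recognizes an ovalbumin (OVA) peptide, and Eomes is a T-box transcription factor of cytotoxic lymphocytes. CD8+ T cells of OT-I transgenic C57BL/6 mice aged 6 to 8 weeks, taken from lymph nodes and spleen, were activated for 24 h with 2.5 ng/mL of the peptide and 10 U/mL IL-2. They then received a retroviral vector that encodes Eomes followed by human CD2, or the empty vector with human CD2 alone, which is the control. Cells carrying human CD2 were sorted 48 h later, plated at 40000 per well and given peptide and IL-2 again at unchanged doses for 3 days before total RNA was taken. The promoter that drives the vector and the number of mice behind each culture are not given in the sources used here.

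Each condition was sequenced as 1 library, so the differences have no replicate check and carry no p-value. The values are FPKM, read numbers scaled to the length of the transcript and the size of the library, so levels can be compared between genes of a library. Ratios are log2 of *Eomes*-overexpressing over control, a gene was called expressed at an FPKM of at least 1 in at least 1 library, and a ratio was called past a 1.5-fold difference. The files give no read numbers, the depth is unknown, and counting intervals could not be computed. *Eomes* itself was at 2.47 FPKM in control and 129.6 in *Eomes*-overexpressing cells, which matches the labels, although transcripts of the vector and of the cells' own gene share this row. Of 10 markers of CD8+ T cells 9 were listed in both libraries, with *Trac* listed in neither, and their summed level was 1728 FPKM in control and 1341 in *Eomes*-overexpressing cells. The level was lower in the latter for 9 of these 9 markers (8 of 9 when centred on genes of like GC content), with *Cd8a* at 181.8 and 99.1 FPKM, and its part in the results was not tested. Of the markers of CD4+ T cells, *Cd4* was at 0.03 and 0.08 FPKM and *Foxp3* at 0.09 and 0.07, while *Zbtb7b*, a transcription factor gene on the same list, was at 13.8 and 11.6.

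CD8+ T cells that meet their antigen again secrete IFN-γ, TNF and lymphotoxin, which activate macrophages, raise antigen presentation and act on blood vessels and tumor cells. The same cells can release GM-CSF and IL-3, which drive myeloid growth, the type 2 cytokine IL-13, and IL-10 and TGF-β, which restrain immune responses. Many of these transcripts are made in a burst through NFAT, AP-1 and NF-κB, and are removed fast when their 3′ untranslated region (UTR) carries AU-rich elements.

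The 9 transcripts did not move together. *Il13*, *Csf2* and *Ltb* fell past 1.5-fold in *Eomes*-overexpressing cells, whereas *Ifng*, *Tnf*, *Lta*, *Tgfb1* and *Il10* lay within 1.5-fold. *Il3* was under an FPKM of 1 in both libraries and was not counted. Thus 3 of the 8 expressed cytokine genes fell and 0 rose, where 5.19% of all 9925 expressed genes fell and 2.46% rose past the same fold. The median log2 ratio of these 8 genes was -0.27, and that of all expressed genes was -0.0037. A bulk library does not tell fewer transcribing cells from fewer transcripts per cell, so each of these levels is a mean over the sorted culture.

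**Figure D1:**
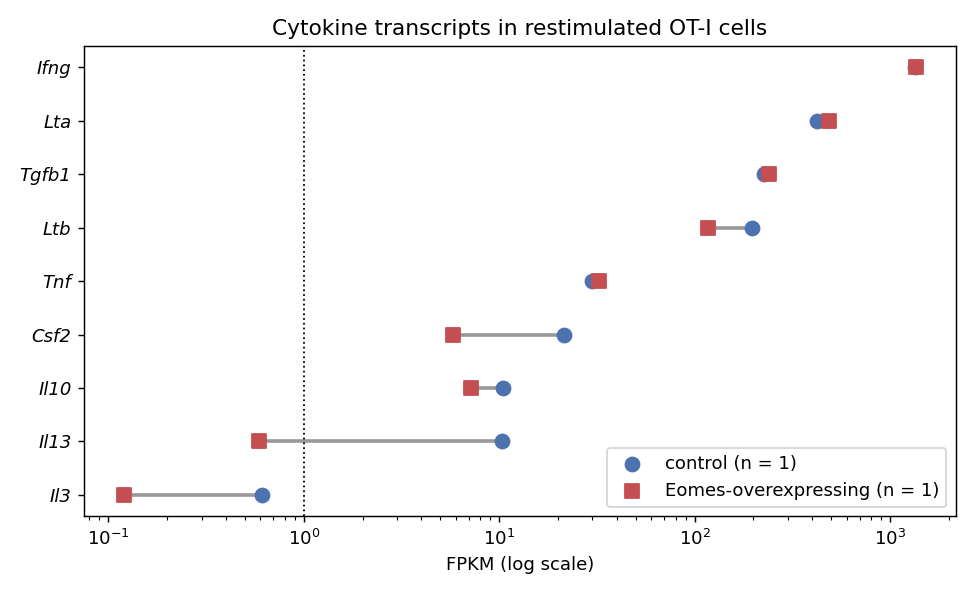
FPKM (log scale) of the 9 cytokine transcripts in the control library (blue circles) and the *Eomes*-overexpressing library (red squares), 1 library each, with a grey line joining the 2 values and a dotted line at an FPKM of 1. *Il13* went from 10.3 to 0.59 FPKM, while *Ifng*, at 1343 and 1357 FPKM, hardly moved.

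Levels of the 9 transcripts spanned more than 3 orders of magnitude on the FPKM scale. In control cells the order from highest to lowest was *Ifng*, *Lta*, *Tgfb1*, *Ltb*, *Tnf*, *Csf2*, *Il10*, *Il13* and *Il3*. In *Eomes*-overexpressing cells the order was the same except that *Il10* stood above *Csf2*. With 1 library each, whether neighbours in this order such as *Il10* at 10.4 FPKM and *Il13* at 10.3 in control differ beyond a replicate spread cannot be said. The summed level of the 9 was 2264 FPKM in control and 2249 in *Eomes*-overexpressing cells, and *Ifng* held 59.3% and 60.3% of it. The sum therefore hid the lower transcripts. *Csf2* and *Il13* were small parts of it. *Ltb* was a larger part, and its difference of -79.6 FPKM stood against 61.8 for *Lta*, 14.7 for *Tgfb1* and 14.3 for *Ifng*.

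*Ifng* (ENSMUSG00000055170.4), which encodes IFN-γ, the main macrophage-activating cytokine of cytotoxic T cells, lies at chr10:118441046-118445892 on the plus strand of mm10. Its level was 1343 FPKM in the control library and 1357 in the other, with a log2 ratio of 0.02, and it ranked 75th and 71st of all listed genes. After ratios were centred on genes of like GC content the log2 ratio was -0.13, so its direction turned with this step while it remained within 1.5-fold. *Ifng* overlaps an unclassified annotated gene, *Gm49751*, with which it shares 13.5% of its stretches of 50 bases, and *Gm49751* was listed in neither library.

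*Tnf* (ENSMUSG00000024401.14), *Lta* (ENSMUSG00000024402.5) and *Ltb* (ENSMUSG00000024399.5) are 3 related genes of the TNF family that lie next to each other in the major histocompatibility complex on chromosome 17. TNF and lymphotoxin-α act as soluble trimers on the TNF receptors, and lymphotoxin-β anchors lymphotoxin-α in the membrane as a ligand of the lymphotoxin-β receptor. *Tnf*, at chr17:35199381-35202007 on the minus strand, was at 29.7 FPKM in control and 32.3 FPKM with *Eomes* overexpressed (log2 ratio 0.12). *Lta*, at chr17:35203165-35205351 on the minus strand, was at 425 and 487 FPKM, a log2 ratio of 0.20. Both were a little higher in *Eomes*-overexpressing cells, within 1.5-fold.

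*Ltb*, at chr17:35194439-35196320 on the plus strand, was the member of this trio that fell. Its level was 197 FPKM in control and 118 in *Eomes*-overexpressing cells, 1.68-fold lower, with a log2 ratio of -0.75. It dropped from rank 438 to rank 768 among the listed genes. Because its partner did not fall, the ratio of *Lta* to *Ltb* went from 2.16 to 4.14, while that of *Lta* to *Tnf* was 14.3 and 15.1. *Ltb* had a high GC content of 61.0%, and transcripts of higher GC content had lower ratios across genes (a Spearman correlation of -0.43 over 9835 expressed genes, which share both libraries and are not replicates). Centred on genes of like GC content its log2 ratio was -0.65 and remained past 1.5-fold. The genes nearest to *Ltb* in ratio were *Gch1*, an enzyme gene of tetrahydrobiopterin synthesis, at 3.89 and 2.32 FPKM, and *Tmem40*, a membrane protein gene, at 2.40 and 1.43.

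*Il13* (ENSMUSG00000020383.1), which encodes a type 2 cytokine that acts on epithelium and macrophages, lies at chr11:53631324-53634702 on the minus strand. It was at 10.3 FPKM in control and 0.59 in *Eomes*-overexpressing cells, 17.5-fold lower, with a log2 ratio of -4.13. It moved from rank 5560 to rank 10246 among the listed genes. Of 9925 expressed genes only 3 had a lower ratio, and each of those was not listed in the *Eomes*-overexpressing library. The expressed gene with the nearest ratio was *Kif13a*, a kinesin motor, at 1.01 and 0.16 FPKM. Its log2 ratio was -2.66, so no expressed gene lay near *Il13* on this scale.

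*Csf2* (ENSMUSG00000018916.5), which encodes the myeloid growth factor GM-CSF, lies at chr11:54247271-54249667 on the minus strand. It was at 21.6 FPKM in control and 5.80 in *Eomes*-overexpressing cells, 3.72-fold lower, with a log2 ratio of -1.90. Its ratio was the 21st lowest of the expressed genes. *Ifng* was at 62.2 times the level of *Csf2* in control and at 234 times in *Eomes*-overexpressing cells. The genes nearest to it in ratio were *Tnfrsf25*, a death receptor of T cells, at 1.71 and 0.46 FPKM, and *Ifi27l2a*, an interferon-induced gene, at 14.4 and 3.84. An antisense gene, *Gm12223*, overlaps *Csf2* and was listed in neither library. Whether the counting used strand is not given in the sources used here.

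*Il3* (ENSMUSG00000018914.5), which encodes a growth factor of early myeloid, mast cell and basophil lineages, lies next to *Csf2* at chr11:54265303-54267277 on the minus strand. It was at 0.61 FPKM in control and 0.12 FPKM with *Eomes* overexpressed (log2 ratio -2.35). Both values were low, and with an FPKM of 1 added to each the log2 ratio was -0.52, within 1.5-fold. The number of reads behind these values is unknown.

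*Il10* (ENSMUSG00000016529.5) and *Tgfb1* (ENSMUSG00000002603.15) encode the 2 cytokines of the set that restrain immune responses. *Il10*, at chr1:131019845-131024974 on the plus strand, was at 10.4 FPKM in control and 7.14 in *Eomes*-overexpressing cells, 1.46-fold lower and so within the threshold. Its log2 ratio was -0.55, and -0.65 and past 1.5-fold when centred on genes of like GC content. *Tgfb1*, at chr7:25687002-25705077 on the plus strand, was at 227 and 242 FPKM, a log2 ratio of 0.09. The transcripts of these inhibitory cytokines were therefore not raised past 1.5-fold.

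In the absence of replicates, the 500 genes closest in mean FPKM to each cytokine show how far ratios scatter near its level. This is a spread over genes and not a replicate error. Around *Il13* the central 95% of these genes had log2 ratios of -0.90 to 0.55, and 0 of the 500 genes had a lower ratio. Around *Csf2* it ran from -0.71 to 0.44, and 2 of the 500 lay lower. Around *Ltb* it ran from -0.46 to 0.31, and 2 of the 500 lay lower here as well. These 3 genes thus stood below the central range of genes of their level.

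The other expressed cytokine genes stood inside it. *Il10* was near the lower edge, with 3.8% of its 500 genes lower and a central range of -0.68 to 0.51. *Ifng*, *Tnf*, *Tgfb1* and *Lta* had 65%, 73.2%, 78.6% and 93% of their 500 genes at a lower ratio. For the most abundant members these genes are only loosely of like level. Their mean FPKM ran from 173 to 8435 around *Ifng* and from 152 to 1353 around *Lta*. At the level of *Il3* the range was wide, from -2.22 to 1.65, and 11 of the 500 genes had a ratio lower than that of *Il3*.

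**Figure D2:**
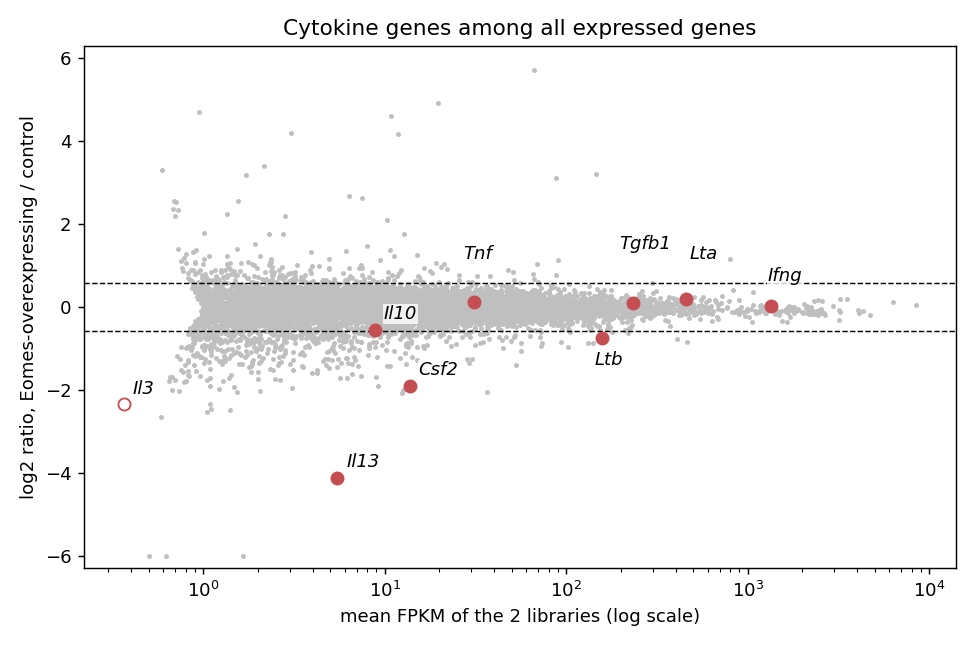
Log2 ratio of *Eomes*-overexpressing over control against the mean FPKM of the 2 libraries (log scale) for all expressed genes (grey points), with the 8 expressed cytokine genes as filled red points, *Il3*, which was under an FPKM of 1, as an open point, and dashed lines at 1.5-fold. Genes with a log2 ratio beyond 6 in size are drawn at 6, and *Il13*, at -4.13, and *Csf2*, at -1.90, lie well below the grey band.

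*Il13*, *Csf2* and *Il3* belong to the type 2 cytokine cluster of chromosome 11. The starts of *Csf2* and *Il3* are 17.6 kb apart, and that of *Il13* lies 615 kb from that of *Csf2*, beyond *Irf1*. The neighbouring cytokine genes *Il4* and *Il5* were nearly silent, with *Il4* at 0.18 FPKM in control and 0.09 in *Eomes*-overexpressing cells and *Il5* at 0.03 in control and not listed in the other library. On this chromosome *Il13* and *Csf2* thus fell, and *Il3*, which was not counted as expressed, was also lower as deposited. Of the expressed members outside it only *Ltb* fell as deposited, and *Il10* also passed 1.5-fold when centred by GC content.

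Genes within 100 kb of the 9 cytokine genes were examined next. There were 23 such expressed genes that are not members, with a median log2 ratio of -0.05. Of these, 3 fell and 0 rose, beside 5.19% and 2.46% of all expressed genes. One of the 3 was *Acsl6*, an acyl-CoA synthetase gene that starts 54.1 kb from *Csf2*, with *Il3* in between. *Acsl6* was at 2.46 FPKM in control and 0.59 FPKM with *Eomes* overexpressed (log2 ratio -2.06). The log2 ratios of *Csf2*, *Il3* and *Acsl6* ran from -2.35 to -1.90 as deposited. With an FPKM of 1 added they were -1.73, -0.52 and -1.12, respectively.

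A wider window of 750 kb on either side of *Csf2*, chosen after the values were seen, held 13 expressed genes that are not members. Of these, 4 fell and 0 rose, and their median log2 ratio was -0.10. The share that fell was 30.8%, beside 5.19% of all expressed genes, and 2 of the 4, *Irf1* and *Gpx3*, lost their call under an alternative. *P4ha2*, a collagen prolyl hydroxylase gene at -149.6 kb from the start of *Csf2*, on the side of *Il13*, went from 4.64 to 1.62 FPKM (log2 ratio -1.52). *Irf1* and *Gpx3* lie farther away and had log2 ratios of -0.62 and -0.72, of which that of *Irf1* was -0.53 when centred by GC content and that of *Gpx3* was -0.38 with an FPKM of 1 added. The expressed neighbours of *Il13* lay within 1.5-fold, since *Rad50* was at 6.17 and 8.00 FPKM and *Kif3a* at 1.89 and 1.58. On the other side of *Acsl6*, *Fnip1* and *Rapgef6* had log2 ratios of 0.22 and 0.26. Apart from *Il13*, the expressed genes of this window with a log2 ratio below -1 were *P4ha2*, *Csf2* and *Acsl6*. They lie in a row with *Il3*, which was not counted as expressed, among them. The bound of -1 was also chosen after the values were seen, and at 1.5-fold *Irf1* and *Gpx3*, outside this row, fell as well.

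Around the trio on chromosome 17 the pattern was mixed. *Tnf* and *Lta* start 3.34 kb apart and *Ltb* starts 7.57 kb from *Tnf*, yet only *Ltb* fell. *Lst1*, a gene of leukocytes beside *Ltb*, was at 4.83 FPKM in control and 2.48 in *Eomes*-overexpressing cells (log2 ratio -0.96). *Ly6g5b*, a gene of the Ly6 family, was at 8.93 and 5.81 FPKM, with a log2 ratio of -0.62 that was -0.54 and within 1.5-fold when centred by GC content. *Ifng* had 5 annotated genes within 100 kb and 0 of them were expressed. The 7 expressed neighbours of *Tgfb1* and *Mapkapk2*, a kinase gene beside *Il10* at 133.7 and 134.1 FPKM, lay within 1.5-fold.

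**Figure D3:**
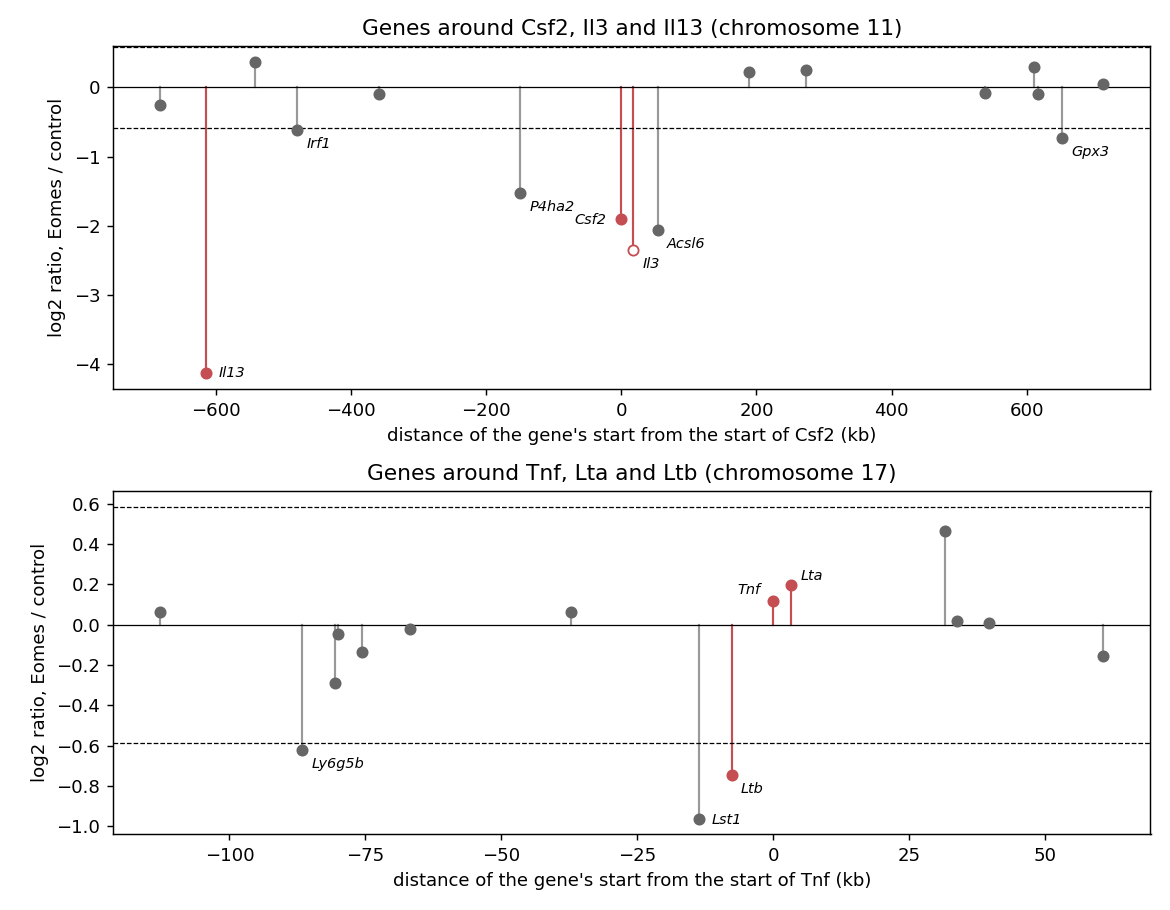
Log2 ratio of *Eomes*-overexpressing over control against the distance of each gene's start from the start of *Csf2* (top, 750 kb either side) or *Tnf* (bottom, genes within 100 kb), in kb, for cytokine genes (red; open for *Il3*, under an FPKM of 1) and the other expressed genes (grey), with dashed lines at 1.5-fold. *P4ha2*, *Csf2*, *Il3* and *Acsl6* lie between -2.35 and -1.52 (at -1.11, -1.73, -0.52 and -1.12 with an FPKM of 1 added), while *Ltb*, at -0.75, lies beside *Tnf* and *Lta*, at 0.12 and 0.20.

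The promoters of the cytokine genes were read as the 250 bases before the start given by RefSeq on GRCm38.p6, available for 8 of the 9 genes and for 7938 expressed genes in all. *Il10* had no such window. The window of *Csf2* ends upstream of the GENCODE start and may miss its proximal promoter, so its matches, which enter each count of 8, are uncertain. Of 7 motifs searched on both strands, TATAAA (the TATA box) was in 4 of the 8 windows and in 5.73% of all windows. The NFAT core GGAAA was in 7 of 8 against 54.4%, and an NF-κB site, read as GGG and CC with any 5 bases between them, was in 5 of 8 against 62.2%. The NFAT core can lie inside an NF-κB site, as it does in *Ltb*. The Runx site TGTGGT was in 2 of 8 against 10.8%, and GAGNTTCCA, the CK-1 element known from *Csf2* and *Il3*, was in 1 of 8 against 1.12%. AP-1 (TGANTCA) and T-box (AGGTGTGA) sites were in 0 of 8, against 3.82% and 0.68%, which says only that these letters are not in these windows.

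A TATA box at the usual distance of 25 to 35 bases before the start was in the windows of *Ifng*, *Tnf* and *Il13*, and in 0.718% of all windows. *Il13* also held 4 NFAT cores, a number reached by 1.50% of windows, and *Tnf* held 3, reached by 6.01%. *Ltb* held 5 NF-κB matches, of which 4 overlap each other, and at least 5 were in 6.83% of windows. *Tgfb1* held 10, reached by 0.328% of windows, and several of these also overlap or match both strands at the same position. *Il13*, *Il3* and *Ifng* are shown for the 160 bases before the start, so that the promoter of the transcript that fell most and that of its neighbour with the CK-1 element can be read beside that of the most abundant one, which hardly moved. Capitals mark TATA boxes, NFAT cores, Runx sites and the CK-1 element, on either strand. *Il13* is read at chr11:53634703-53634862 and *Il3* at chr11:54267280-54267439, both on the minus strand, and *Ifng* at chr10:118440886-118441045 on the plus strand.
Il13: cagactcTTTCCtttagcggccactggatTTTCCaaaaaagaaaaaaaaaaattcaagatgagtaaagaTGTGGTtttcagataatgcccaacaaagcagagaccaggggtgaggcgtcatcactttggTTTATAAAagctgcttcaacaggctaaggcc
Il3: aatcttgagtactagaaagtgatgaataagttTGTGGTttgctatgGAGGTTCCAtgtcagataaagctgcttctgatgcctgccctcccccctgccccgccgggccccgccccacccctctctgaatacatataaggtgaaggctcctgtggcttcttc
Ifng: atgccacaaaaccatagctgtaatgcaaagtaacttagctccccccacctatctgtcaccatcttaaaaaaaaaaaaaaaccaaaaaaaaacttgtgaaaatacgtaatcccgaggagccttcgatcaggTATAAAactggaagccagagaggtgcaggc
The TATA box of *Ifng* starts 30 bases and that of *Il13* 29 bases before the start, and the Runx site of *Il3* stands just before its CK-1 element. The window of *Csf2* is not shown because of its uncertain start.

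The 3′ UTR of each cytokine transcript was searched for ATTTA, the core of AU-rich elements, a search chosen with the ratios known. Over 9775 expressed genes with a 3′ UTR the median number was 1, at 1.29 per kb. *Csf2* held 9 in 317 bases, which is 28.4 per kb and more than in 99.9% of genes. *Tnf* held 8 in 764 bases (10.5 per kb) and *Ifng* 6 in 631 bases (9.51 per kb). *Il10* held 6, *Lta* and *Il13* held 3 each, *Il3* and *Tgfb1* held 1 each in short UTRs of 101 and 135 bases, and *Ltb* held 0 in 156 bases. *Csf2*, *Tnf* and *Ifng* were the members with at least 3 cores within 30 bases, and the densest such stretch of each is shown 5′ to 3′ as DNA with the cores in capitals, from the GENCODE vM21 transcripts.
Csf2: ATTTATTTATTTATTTATTTA
Tnf: ATTTAttATTTATTTAttATTTATTTA
Ifng: ATTTAttaatATTTAaaactATTTA
*Csf2* fell with 9 cores, *Il13* with 3 and *Ltb* with 0. *Tnf*, *Ifng*, *Il10*, *Lta* and *Tgfb1*, with 8, 6, 6, 3 and 1, lay within 1.5-fold. The part of the cores in these ratios was not tested. Across all expressed genes the tenth with the highest density of ATTTA, 978 genes, had a median log2 ratio of 0.07. The Spearman correlation of ratio and density was 0.27, a description over genes that share both libraries. ATTTA holds only A and T, and ratios also fell with GC content across genes (a Spearman correlation of -0.43). The ATTTA values were not recomputed after centring by GC content, and the part of GC content in them was not tested.

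Receptors for the 9 cytokines were a list of 18 genes, of which 14 were expressed. The list was compiled, like the other lists, with earlier results of these data known. Among these 14, 1 rose and 3 fell, beside 2.46% and 5.19% of all expressed genes. The median log2 ratio of the 14 was -0.04, which became 0.03 when centred by GC content. *Il10ra*, which encodes the ligand-binding chain of the IL-10 receptor, rose from 7.44 to 13.4 FPKM (log2 ratio 0.85), whereas *Il10rb*, its shared partner chain, was at 16.9 and 17.7. *Il4ra*, the chain through which both IL-4 and IL-13 signal, fell from 42.5 to 27.1 FPKM (log2 ratio -0.65), and lay within 1.5-fold at -0.56 when centred by GC content. *Il13ra1* and *Il13ra2*, which bind IL-13, were listed in neither library.

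For IFN-γ, *Ifngr1*, the ligand-binding chain, was at 59.9 and 67.2 FPKM, and *Ifngr2*, the signalling partner chain, was at 1.14 and 0.63 (log2 ratio -0.86). For GM-CSF and IL-3, *Csf2rb*, the common beta chain, was at 1.17 and 0.73 FPKM (log2 ratio -0.68). These 2 low receptors fell as deposited and lay within 1.5-fold with an FPKM of 1 added, at -0.39 and -0.33, respectively. *Csf2rb* has a near-identical copy, *Csf2rb2*, at 0.13 and 0.06 FPKM, so its reads may be shared. The ligand-specific chains *Csf2ra*, at 2.50 and 2.17 FPKM, and *Il3ra*, at 9.02 and 8.47, lay within 1.5-fold.

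The expressed receptors of the TNF trio and of TGF-β lay within 1.5-fold. *Tnfrsf1a* was at 11.8 FPKM in control and 11.6 in *Eomes*-overexpressing cells, and *Tnfrsf1b*, the TNF receptor enriched on T cells, at 38.3 and 40.7. *Tnfrsf14*, a receptor that binds lymphotoxin-α, was at 3.49 and 3.14 FPKM, and *Ltbr*, the receptor of the membrane lymphotoxin, was under 1 in both, at 0.43 and 0.21 (log2 ratio -1.03), and was not counted. *Tgfbr1*, *Tgfbr2* and *Tgfbr3* had log2 ratios of 0.27, 0.23 and -0.05.

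Genes known to respond to these cytokines were counted in 3 lists. Of 23 expressed genes known to respond to IFN-γ, 0 rose and 3 fell, beside 2.46% and 5.19% of all expressed genes. The median log2 ratio of the 23 was -0.21. The ratio was below 0 for 19 of the 23, and for 16 of the 23 when centred by GC content. The share of all expressed genes below 0 was not computed, and their median log2 ratio was -0.0037. *Gbp2*, a guanylate-binding protein gene, fell from 8.97 to 3.52 FPKM, *Tgtp1*, an immunity-related GTPase gene, from 6.64 to 2.78, and *Irf1* from 21.6 to 14.1. *Tgtp1* has a near-identical copy, *Tgtp2*, so its value is uncertain, and the call of *Irf1* was lost on centring by GC content, as given above. *Ifng* itself was at nearly the same level in both libraries.

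Of 20 expressed genes known to respond to TNF and NF-κB, 0 rose and 1 fell, beside 2.46% and 5.19% of all expressed genes. The median log2 ratio of the 20 was -0.05. The gene that fell was *Bcl2a1d*, an antiapoptotic gene with near-identical copies, at 87.4 and 57.5 FPKM, and its log2 ratio of -0.60 was -0.57 and within 1.5-fold on the TPM scale. Of 9 expressed genes known to respond to TGF-β, 1 rose and 3 fell, beside the same shares of all expressed genes. The median log2 ratio of the 9 was 0.03 and became -0.01 when centred by GC content. *Id2*, an inhibitor of E proteins, rose from 56.3 to 123.6 FPKM, and *Id3*, its relative, fell from 4.40 to 1.83. *Pmepa1*, a feedback inhibitor of TGF-β signalling, fell from 9.43 to 4.09 FPKM. *Smad3*, a signal transducer of the pathway, fell from 1.73 to 0.97, and its log2 ratio of -0.83 was -0.47 with an FPKM of 1 added.

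Among 38 expressed transcription factors known at these cytokine genes, 3 rose, *Eomes* included, and 3 fell, beside 2.46% and 5.19% of all expressed genes. The median log2 ratio of the 38 was -0.12. *Tbx21*, which encodes T-bet, the other T-box factor of *Ifng*, fell from 41.0 to 21.6 FPKM (log2 ratio -0.92), while *Ifng* lay within 1.5-fold. *Stat4*, which relays IL-12 to *Ifng*, was at 22.5 and 14.8 FPKM, and its log2 ratio of -0.60 was -0.57 and within 1.5-fold on the TPM scale. *Irf1* was the third that fell. *Nfil3*, a factor known to act on *Il10* and *Il3*, rose from 36.3 to 65.3 FPKM, and *Fosl2*, an AP-1 subunit, rose from 5.87 to 9.42. *Gata3*, the type 2 factor known to act on *Il13*, was at 3.28 and 2.71 FPKM.

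Of 15 expressed factors of cytokine mRNA decay, 1 rose and 1 fell, beside 2.46% and 5.19% of all expressed genes. *Zfp36l2*, an AU-rich element binding protein, was at 44.6 and 67.2 FPKM, a log2 ratio of 0.59 that was 0.58 and within 1.5-fold with an FPKM of 1 added. *Zc3h12d*, a relative of the RNase Regnase-1, fell from 18.04 to 9.85 FPKM. The median log2 ratio of the list was 0.02 and became -0.01 when centred by GC content. Of 10 expressed genes that shed TNF or process and activate TGF-β, 0 rose and 0 fell, beside 2.46% and 5.19% of all expressed genes.

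Of 8 other expressed ligands of the TNF superfamily 3 rose and 1 fell, beside 2.46% and 5.19% of all expressed genes. The median log2 ratio of the 8 was 0.04. *Fasl*, the death ligand, rose from 13.8 to 27.1 FPKM, *Tnfsf9*, the ligand of 4-1BB, from 8.05 to 13.9, and *Tnfsf10*, which encodes TRAIL, from 2.84 to 4.99. *Tnfsf8*, the ligand of CD30, fell from 1.61 to 0.57 FPKM. The other 4 lay within 1.5-fold, and 0 of the 8 were higher at a 2-fold threshold.

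Of 33 other interleukins, interferons and growth factors 8 were expressed, with a median log2 ratio of -0.14. Of these 8, 1 rose and 3 fell, beside 2.46% and 5.19% of all expressed genes. *Spp1*, which encodes osteopontin, rose from 45.3 to 92.9 FPKM. *Il23a*, a subunit of IL-23, fell from 6.81 to 3.73 FPKM, and *Lif*, a cytokine of the IL-6 family, from 2.15 to 0.69. *Il1a*, which encodes IL-1α, fell from 1 to 0.44, with a log2 ratio of -1.18 that was -0.47 with an FPKM of 1 added. *Il2* and *Il21* were listed in neither library.

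**Figure D4:**
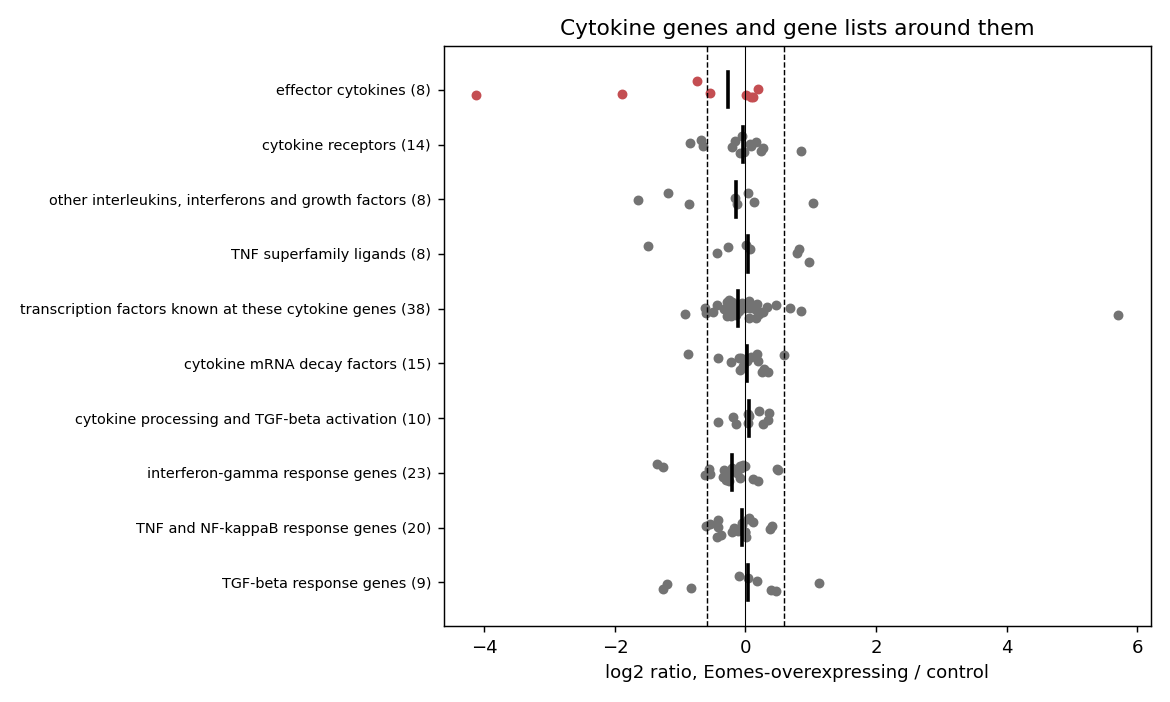
Log2 ratio of *Eomes*-overexpressing over control for the expressed genes (points, number in brackets) of the effector cytokines (red) and of the 9 lists around them (grey), with a black bar at each median and dashed lines at 1.5-fold; points are spread vertically for legibility. The point at 5.71 is *Eomes*, the median of the cytokines is -0.27, and the list medians run from -0.21 to 0.05, of which those of the receptors, the mRNA decay factors and the TGF-β response genes change sign when centred by GC content.

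Because *Il13*, *Il3* and *Csf2* can come from other cells, markers of such cells were read beside them. Of 10 genes of mast cells and basophils 4 were listed, with a summed level of 1.32 FPKM in control and 5.18 in *Eomes*-overexpressing cells. This sum was higher where *Il13* was lower, and the part of such cells in the level of *Il13* was not tested. The largest part of the sum was *Kit* in control, at 0.78 and 1.04 FPKM in the 2 libraries. In *Eomes*-overexpressing cells it was *Mcpt8*, a basophil protease gene, at 0.37 and 3.94. The defining markers *Fcer1a* and *Ms4a2* were listed in neither library. The 9 genes of type 2 lymphocytes were listed in at least 1 library, with a summed level of 36.1 FPKM in control and 23.0 in *Eomes*-overexpressing cells. Within this list *Ccr4* went from 24.8 to 15.7 FPKM and *Il1rl1*, which encodes the IL-33 receptor, from 7.55 to 4.44, both past 1.5-fold and in the direction of *Il13*, and their part in its level was not tested. Markers of myeloid and dendritic cells, which also make TNF and IL-10, summed to 4.17 and 3.21 FPKM over the 7 of 12 listed. Most of it was *Xcr1*, at 1.79 and 1.11 FPKM, and *Cd14*, at 1.39 and 1.12. The log2 ratio of *Xcr1* was -0.69, and -0.40 with an FPKM of 1 added, and the part of these markers was not tested. *Csf1r*, *Adgre1* and *Lyz2* were listed in neither library. Of 6 markers of NK cells 3 were listed, with a summed level of 33.98 FPKM in control and 30.79 with *Eomes* overexpressed. Most of it was *Klrk1*, which activated CD8+ T cells also express, at 33.6 and 25.1 FPKM (log2 ratio -0.42, and -0.68 and past 1.5-fold when centred by GC content). *Klrb1c* was at 0.31 and 5.74 FPKM, and *Ncr1* was listed in neither library. B cell markers summed to 3.55 and 1.98 FPKM over the 5 of 7 listed, of which *Cd79b* held 2.79 and 1.56, with *Ms4a1* and *Pax5* listed in neither library.

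Over a pseudocount of 0.1 or 1, scaling to TPM, centring on the median or on a trimmed mean, and centring by GC content, *Il13* had a log2 ratio between -4.13 and -2.83, *Csf2* between -2.0 and -1.73, and *Ltb* between -0.75 and -0.65. *Lta* lay between 0.19 and 0.28, *Tnf* between 0.11 and 0.18 and *Tgfb1* between 0.09 and 0.15 under the same alternatives. The genes that changed their sign or their side of 1.5-fold were *Ifng*, between -0.13 and 0.05, *Il10*, between -0.65 and -0.49, and *Il3*, between -2.35 and -0.52. The number of expressed cytokine genes that fell was 3 under each of these except centring by GC content, which added *Il10* and gave 4.

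**Figure D5:**
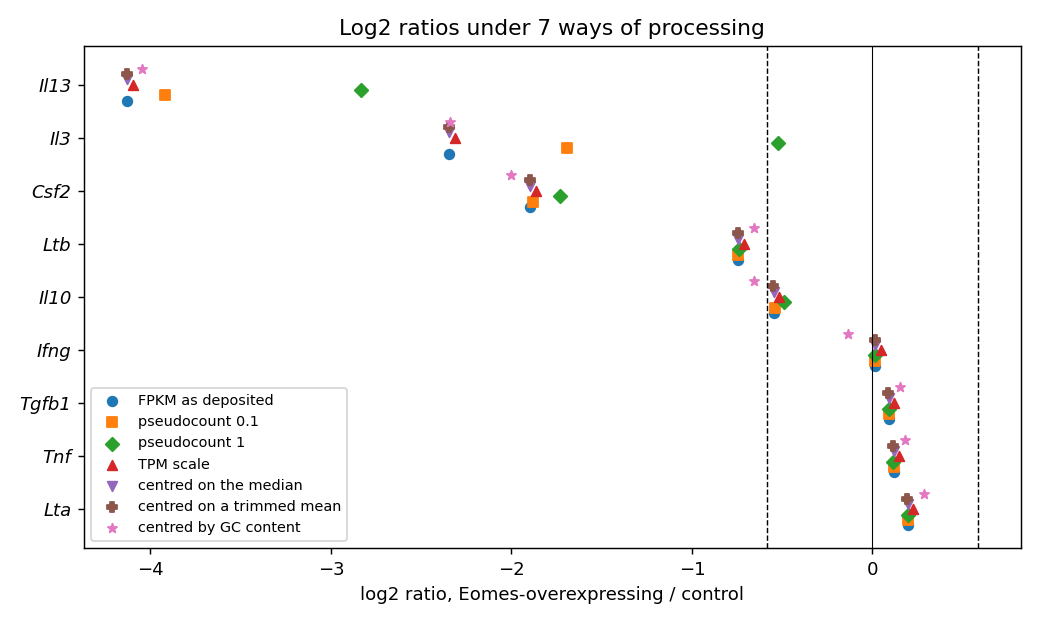
Log2 ratio of *Eomes*-overexpressing over control for each of the 9 cytokine genes under 7 ways of processing (symbols), with dashed lines at 1.5-fold and a solid line at 0; symbols are offset vertically for legibility. Only *Ifng* changes its side of 0, at -0.13 when centred by GC content, and *Il3*, at -0.52 with a pseudocount of 1, and *Il10*, at -0.65 when centred by GC content, change their side of the 1.5-fold line.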

How the data were processed

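From 2 restimulated OT-I cultures the authors had total RNA sequenced on an Illumina HiSeq instrument, with 1 library per culture. Reads were filtered with SOAPnuke and mapped to mm10 with HISAT and Bowtie2, and RSEM computed expression. Their versions are not given in the sources used here. The deposited values are FPKM with 2 decimals from 0.01 upward, and each library has a single value for a symbol. The methods call them RPKM and name no normalization between libraries. Not used were 20 symbols of the control file and 19 of the other that read as calendar dates.

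Log2 ratios were computed with Python 3.11.15, numpy 2.4.6 and pandas 2.3.3, and figures with matplotlib 3.10.9. A gene without a listed value counted as 0.01. The log2 ratios, the 1.5-fold threshold and the centring by GC content were tested on simulated data. Genes under a mean FPKM of 5 were not simulated. The motif search was tested on short sequences, and the other steps were not tested in this way. The depth is unknown, and whole reads could not be recovered from low values. Gene positions, 3′ UTRs and GC content (longest transcript, 20 bins for centring) came from GENCODE vM21 of mm10, and promoters from RefSeq on GRCm38.p6. The 2 groups followed the labels. Each ratio of a cytokine gene was recomputed with another pseudocount, scale or centring. Counts of cytokine genes, all genes and the 9 lists were recomputed likewise, and with another minimum FPKM (none or 5) or fold (2). Counts of neighbours were not recomputed.

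Named were all 9 cytokine genes, the expressed receptors, up to 5 genes per direction with the largest ratios past 1.5-fold in each list, neighbours within 100 kb past 1.5-fold, the 2 genes nearest in ratio to each cytokine gene that passed, and *Eomes*. The members and lists were chosen with earlier results of these data known. Genes named outside this rule, such as receptors under an FPKM of 1, genes within 750 kb of *Csf2*, markers and genes within 1.5-fold given for comparison, were chosen after their values were seen. Of the genes that the rule names, 1 is not reported here. The study's binding data were not analysed here.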

Additional observations from a re-analysis of the deposited data

How the results depend on the processing

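Of 54 recomputed log2 ratios of the 9 cytokine genes, 51 kept their direction and their side of 1.5-fold. The others were *Ifng*, which turned to -0.13 when centred by GC content, *Il10*, which passed 1.5-fold at -0.65 under the same step, and *Il3*, which lay at -0.52 with a pseudocount of 1. The number of cytokine genes that fell was 4 with no minimum FPKM, since *Il3* was then counted, and 2 at a 2-fold threshold. The numbers of all genes that rose and fell (244 and 515) were 118 and 285 with a pseudocount of 1, 1356 and 2088 with no minimum FPKM, 95 and 213 with a minimum of 5, and 69 and 175 at 2-fold. Of 162 recomputed list counts 24 moved by more than 1.5 times. At 2-fold the receptors had 0 higher and 0 lower, the TNF superfamily ligands 0 higher, the transcription factors 1 higher and 0 lower, the decay factors 0 higher and 0 lower, and the TNF response genes 0 lower. With a pseudocount of 1, 1 receptor and 1 transcription factor were lower and 0 decay factors higher. With no minimum FPKM 5 receptors were lower, 4 other interleukins and growth factors higher and 15 lower, 4 TNF superfamily ligands lower, 2 processing genes lower, and 2 TGF-β response genes higher and 8 lower. With a minimum of 5, 1 receptor, 1 other interleukin or growth factor, 0 TNF superfamily ligands and 1 TGF-β response gene were lower. On the TPM scale 0 TNF response genes were lower, and centred by GC content 2 TNF superfamily ligands were lower.

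With 1 library per condition and no read numbers, no replicate error and no counting error is known, and this weighs most on low values such as those of *Il3*. No paired analysis was possible because the groups share fewer than 2 replicate numbers. With 1 library per condition no replicate was left out.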
